A study of Gallus gallus with 20 samples.

Results

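The genes described here encode subunits of voltage-gated calcium channels, in skin of White Leghorn chicken embryos that was about to form, or was forming, feathers or scales. Of the 13009 genes that the array annotation names, 10 were taken by symbol: the pore-forming subunits CACNA1C, CACNA1D, CACNA1B, CACNA1G and CACNA1H, the β subunits CACNB2 and CACNB4, the α2δ subunits CACNA2D1 and CACNA2D3, and the γ subunit CACNG3. Together they have 33 probe sets, short groups of array probes that share a target. Where a gene has several, the one whose mean over the 20 arrays is highest stands for it. All 10 have a level on every array, and no filter on low levels was used.

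RNA was measured on chicken genome arrays, 1 array for each pooled sample. Dorsal skin, which forms feathers, was taken at embryonic day 7 (E7f), when it is labelled undifferentiated, and at day 9 (E9f), when it is labelled differentiated. Metatarsal skin of the leg, which forms scales, was taken undifferentiated at day 9 (E9s) and differentiated at day 11 (E11s). EDTA treatment split each skin into epithelium (e) and mesenchyme (m), so that E7fe is day 7 feather epithelium and E9sm day 9 scale mesenchyme. No group was treated, mutant or transgenic. There are 2 arrays for each compartment of the undifferentiated skins (E7f and E9s) and 3 for each compartment of the differentiated skins (E9f and E11s). The labels call them biological replicates, without the number of embryos in a pool, and p-values measure the spread between these arrays. Scale skin is the older in each pair of like stage, so region and age cannot be told apart there. The E9 skins are of 1 age but of different stage. In bulk RNA of this kind, fewer cells of a type and less RNA per cell cannot be told apart.

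Levels are the authors' RMA values on the log2 scale, where a difference of 1 is a doubling. A level cannot be set against that of another probe set. Differences were tested with limma over all 38439 probe sets, with Benjamini-Hochberg adjustment. A gene is said to pass where its adjusted p is below 0.05, and ± after a difference is its SE. The compartments were recognisable by their own markers: of 12 epithelial genes on the array 9 to 11 passed as lower in mesenchyme in each skin, and of 12 mesenchymal genes 7 to 9 passed as higher. The 12 mesenchymal markers summed, on the log2 scale, to 14.70 to 16.02 over the E9fe arrays and 16.25 to 16.72 over the E9fm arrays. In the other epithelia these markers summed to 14.89 to 15.05 (E7fe), 15.49 to 15.53 (E9se) and 15.42 to 15.69 (E11se). The matching mesenchyme sums were 16.34 to 16.43 (E7fm), 16.59 to 16.64 (E9sm) and 16.55 to 16.73 (E11sm). The part of mesenchymal RNA in the epithelium samples was not tested. The 12 epithelial markers summed to 15.22 to 15.39 in E9fe and 9.64 to 11.94 in E9fm. A pair of arrays stood apart from their labels. SP8, a transcription factor of limb ectoderm, was at 10.16 on E9fe replicate 1 and at 3.98 and 4.01 on the other E9fe arrays. TBX4, a transcription factor of the hindlimb, was at 10.39 on E9fm replicate 1, against 5.29 and 5.35 on replicates 2 and 3 of that group. HOXC9 was at 5.82 on that array and at 9.69 and 9.56 on the other E9fm arrays. It was at 4.94 to 5.49 in scale mesenchyme but at 9.33 to 10.01 in scale epithelium. The same E9fm array held epithelial markers above the others of its group, with EPCAM at 9.63 against 6.18 and 5.03, CDH1 at 9.54 against 4.92 and 5.34 and KRT5 at 8.65 against 4.19 and 5.71. Their part in the E9f differences was not tested, and without this array CACNA1C, CACNA1D, CACNA1G, CACNB2 and CACNA2D1 still passed there. Both arrays were kept under their labels, and results that change without them are given both ways.

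Voltage-gated calcium channels open when the membrane depolarises and let calcium into the cell, where it acts as a second messenger. The α1 subunit forms the pore and sets the channel type. L-type and N-type pores open at high voltage and assemble with a β subunit inside the membrane and an α2δ subunit outside, which raise the number of channels at the surface, while T-type pores open at lower voltage and can work without them. In chick skin, calcium oscillations have been linked to the movement of mesenchymal cells in growing feather buds. Most of what is known of each subunit comes from mammalian nerve and muscle.

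The main division was between compartments. CACNA1G and CACNA2D1 were higher in mesenchyme in all 4 skins, and CACNA1D was higher in epithelium, passing in 3 of them. CACNG3 stood out in a single group, E7fe. For CACNA1G and CACNA2D1 all 10 mesenchyme arrays lay above all 10 epithelium arrays, as for 5.29% of all probe sets, and for CACNA1D all 10 lay below, as for 4.84%. Passing with a higher level in mesenchyme in all 4 skins was found for 3.80% of all probe sets. The plot of levels by array shows these 3 patterns beside the flatter levels of the other members.

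**Figure D1:**
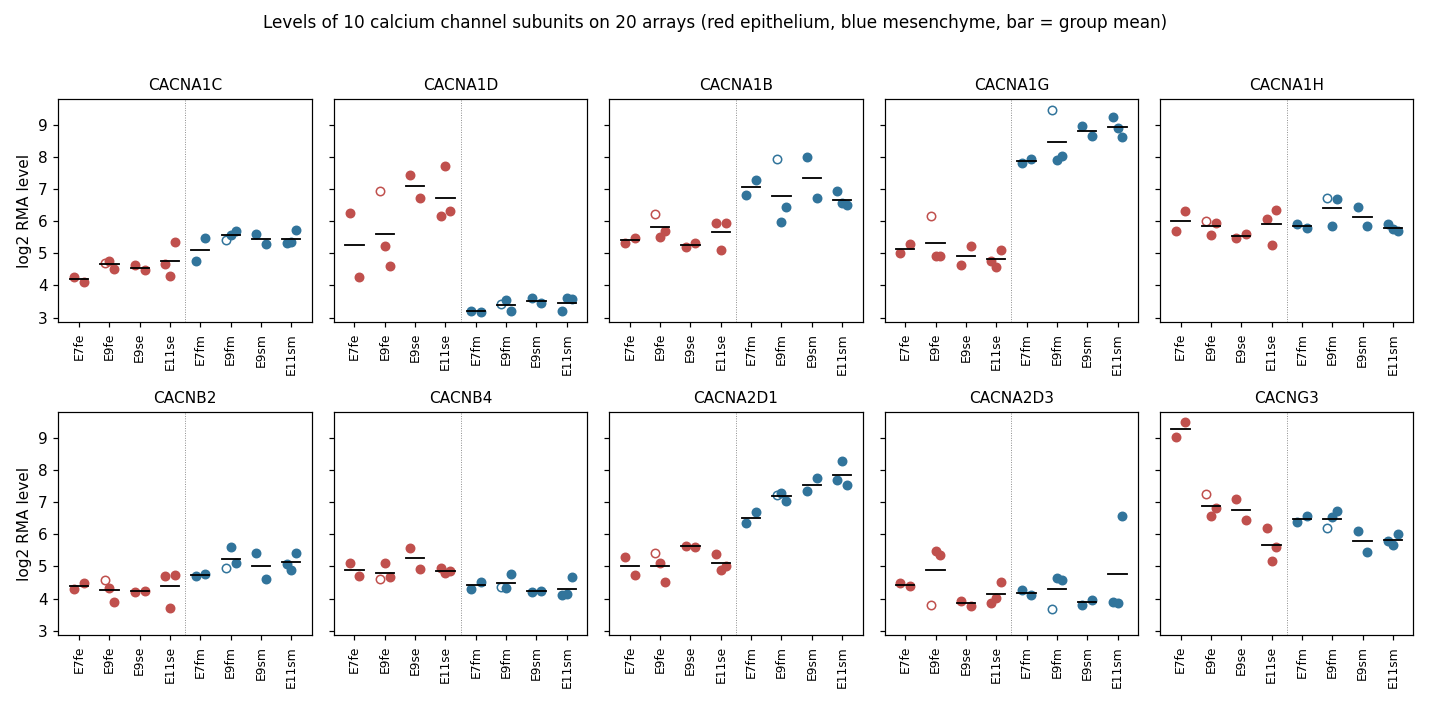
Levels of the 10 subunits (log2 RMA level, vertical axis) in the 8 groups (horizontal axis), 1 point for each of 20 arrays and a bar for each group mean, with epithelium in red, mesenchyme in blue and E9fe and E9fm replicate 1 as open circles. CACNA1G and CACNA2D1 are higher on all 10 mesenchyme arrays, CACNA1D on all 10 epithelium arrays, and CACNG3 is highest in E7fe, at 9.26. Levels may be compared within a panel, not between panels.

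Among pore subunits, CACNA1C and CACNA1D form L-type channels, which in mammals carry the calcium current of heart, smooth muscle and many nerve and endocrine cells. CACNA1D was at 6.24 and 4.25 on the E7fe arrays, at 6.94, 5.22 and 4.61 in E9fe, at 7.44 and 6.71 in E9se and at 6.17, 7.70 and 6.33 in E11se. The mesenchyme arrays lay close together, at 3.21 and 3.18 in E7fm, 3.41, 3.56 and 3.21 in E9fm, 3.60 and 3.45 in E9sm and 3.21, 3.61 and 3.57 in E11sm. All epithelium arrays were thus above all mesenchyme arrays, but within E7fe and within E9fe the arrays were widely spread. From the highest, the group means ran E9se (7.08 ± 0.51 SD, n = 2), E11se (6.73 ± 0.85, n = 3), E9fe (5.59 ± 1.21, n = 3) and E7fe (5.25 ± 1.41, n = 2). Neighbours among these 4 groups overlapped, as did neighbours among the mesenchyme groups.

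CACNA1D was lower in mesenchyme by -3.55 ± 0.66 in E9s (adjusted p = 0.00127) and by -3.27 ± 0.54 in E11s (adjusted p = 0.000292). No fold is given, since its mesenchyme levels, 3.18 to 3.61, are low and were not tested against array background. In feather skin the difference was -2.20 ± 0.54 at E9 (adjusted p = 0.00900), but -1.54 (adjusted p = 0.0704) without E9fe and E9fm replicate 1. Of these arrays, E9fe replicate 1 holds the highest level of its group. Without E9fe replicate 1 alone the difference was -1.53, which still passed. At E7 it was -2.05 ± 0.66 (adjusted p = 0.0564), and the same difference passed once those 2 arrays were left out (adjusted p = 0.0183) and with the replicate number as a block (adjusted p = 0.0479). The scale and feather skins were not shown to differ in this respect: the compartment difference was more negative in scale by -1.5 (95% interval -3.5 to 0.49) at the undifferentiated stage and by -1.07 (-2.70 to 0.56) at the differentiated stage.

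CACNA1C was low in epithelium, at 4.28 and 4.12 in E7fe, and reached 4.75 and 5.47 in E7fm. At E9 its feather epithelium arrays were at 4.71, 4.76 and 4.5 and its feather mesenchyme arrays at 5.41, 5.58 and 5.69. The groups did not overlap at either age, with 2 arrays a group in E7f and 3 in E9f. The differences were 0.91 ± 0.28 in E7f (adjusted p = 0.0468) and 0.90 ± 0.23 in E9f (adjusted p = 0.0124). In scale skin they were 0.88 in E9s (adjusted p = 0.0509) and 0.68 in E11s (adjusted p = 0.0513), just above the threshold, and both passed with the replicate number as a block (adjusted p = 0.0399 and 0.0404). The E7f call was lost without the 2 doubted arrays (adjusted p = 0.0554) and without E7fe replicate 1, E7fe replicate 2 or E7fm replicate 2 (adjusted p = 0.124, 0.234 and 0.498, the last with a difference of 0.55). The E9f call was lost without E9fe replicate 3 (adjusted p = 0.0552) or E9fm replicate 3 (adjusted p = 0.0529). With the mean of all CACNA1C probe sets the E7f difference was 0.69 and did not pass (adjusted p = 0.0512). The other 5 CACNA1C probe sets had positive differences in all 4 skins, of which 0, 5, 3 and 2 passed in E7f, E9f, E9s and E11s.

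CACNA1B forms the N-type pore, best known from mammalian nerve endings, where it triggers transmitter release. Its levels were 5.33 and 5.47 in E7fe against 6.82 and 7.29 in E7fm, and 5.21 and 5.32 in E9se against 8.00 and 6.71 in E9sm. In both skins the mesenchyme arrays were the higher ones. The difference was 1.65 ± 0.51 in E7f (adjusted p = 0.0445) and 2.09 ± 0.51 in E9s (adjusted p = 0.0101). In E9f it was 0.97 (adjusted p = 0.145), with arrays at 6.23, 5.52 and 5.69 in E9fe and 7.94, 5.96 and 6.43 in E9fm, which overlap. In E11s it was 1.02 (adjusted p = 0.115), and the same difference passed in the fit without the 2 doubted arrays (adjusted p = 0.0223). The E7f call was lost on leaving out any 1 of its 4 arrays (adjusted p 0.0997 to 0.277), and the E9s call without E9se replicate 1 (0.0727), E9se replicate 2 (0.0524) or E9sm replicate 1 (0.166, with a difference of 1.45). A further CACNA1B probe set stayed between 3.5 and 3.86 in all group means and passed nowhere.

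CACNA1G and CACNA1H form T-type channels, which in mammals pace rhythmic activity in heart and brain. CACNA1G gave the widest range of group means of the 10 genes, 4.10 log2 units. Its epithelium arrays were at 5.01 and 5.29 in E7fe, 6.17, 4.91 and 4.92 in E9fe, 4.63 and 5.23 in E9se and 4.77, 4.57 and 5.11 in E11se. Its mesenchyme arrays were at 7.82 and 7.94 in E7fm, 9.47, 7.91 and 8.04 in E9fm, 8.97 and 8.66 in E9sm and 9.24, 8.90 and 8.62 in E11sm. The lowest mesenchyme array was thus well above the highest epithelium array, which was E9fe replicate 1, and the highest mesenchyme array was E9fm replicate 1. The group means of neighbouring mesenchyme groups, from E11sm (8.92 ± 0.31 SD) down to E9sm (8.81 ± 0.22), E9fm (8.47 ± 0.86) and E7fm (7.88 ± 0.08), overlapped.

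CACNA1G was higher in mesenchyme by 2.73 ± 0.46 in E7f (adjusted p = 0.000549), 3.14 ± 0.38 in E9f (1.56e-05), 3.88 ± 0.46 in E9s (1.74e-05) and 4.10 ± 0.38 in E11s (5.77e-07). These are 6.63-fold, 8.81-fold, 14.8-fold and 17.2-fold. The epithelium means, 4.82 to 5.33, are below the median level of all probe sets, 5.714, and were not tested against array background. All 4 calls were kept on leaving out any array of the groups compared. The probe sets of CACNA1G did not give 1 size. The other 4 correlated with the one used at r = 0.54 to 0.94 over the 20 arrays and had smaller positive differences, between 0.05 and 2.39, of which 0, 1, 2 and 1 passed in E7f, E9f, E9s and E11s. With the mean of all 5 probe sets in place of the one used, the E7f difference was 0.96 and did not pass (adjusted p = 0.0731).

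CACNA1H did not pass in any comparison. Its group means lay between 5.54 in E9se and 6.42 in E9fm, and the compartments differed by -0.13, 0.58, 0.59 and -0.12 in E7f, E9f, E9s and E11s. All but the last step of its order of groups joined groups that overlap.

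Each of the β subunits passed in 1 skin. CACNB2, the main β subunit of mammalian heart, was at 4.59, 4.34 and 3.91 in E9fe and at 4.96, 5.61 and 5.12 in E9fm. These arrays did not overlap. The difference of 0.95 ± 0.28 passed (adjusted p = 0.0255). It did not pass without E9fe replicate 2 (0.0599), E9fe replicate 3 (0.129), E9fm replicate 2 (0.106) or E9fm replicate 3 (0.0516). In the other skins the difference was 0.36, 0.79 and 0.74 for E7f, E9s and E11s, with adjusted p of 0.745, 0.162 and 0.0777. Of its other 4 probe sets 2 passed in E9f and 2 in E11s, as higher in mesenchyme.

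CACNB4, a β subunit studied mostly in mammalian brain, ran the other way. It was at 5.59 and 4.93 in E9se and at 4.22 and 4.23 in E9sm, a difference of -1.04 ± 0.25 (adjusted p = 0.00930). The call was lost without E9se replicate 1 (-0.71, adjusted p = 0.179), E9sm replicate 1 (0.0564) or E9sm replicate 2 (0.0503). The differences in E7f, E9f and E11s were -0.48, -0.31 and -0.55 and did not pass. Its other probe set had differences of -0.60, -0.85, -1.53 and -1.05 in E7f, E9f, E9s and E11s and passed in the last 3.

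CACNA2D1 encodes the α2δ subunit that binds gabapentin in mammals. On the epithelium arrays it was at 5.30 and 4.73 in E7fe, 5.42, 5.11 and 4.52 in E9fe, 5.65 and 5.60 in E9se and 5.39, 4.89 and 5.02 in E11se. On the mesenchyme arrays it was at 6.34 and 6.70 in E7fm, 7.21, 7.29 and 7.04 in E9fm, 7.35 and 7.74 in E9sm and 7.68, 8.29 and 7.54 in E11sm. The mesenchyme groups stood in the order E11sm (7.83 ± 0.40 SD, n = 3), E9sm (7.54 ± 0.27, n = 2), E9fm (7.18 ± 0.13, n = 3) and E7fm (6.52 ± 0.25, n = 2). Only E11sm and E9sm overlapped among these neighbours.

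CACNA2D1 was higher in mesenchyme by 1.5 ± 0.30 in E7f (adjusted p = 0.00227), 2.17 ± 0.24 in E9f (8.06e-06), 1.92 ± 0.30 in E9s (0.000254) and 2.74 ± 0.24 in E11s (4.14e-07), or 2.83-fold, 4.48-fold, 3.79-fold and 6.66-fold. The calls were kept on leaving out any array of the groups compared. Its epithelium means, 5.02 to 5.62, are also below the median level of 5.714 and were not tested against array background. The 3 other probe sets followed closely, with r = 0.93 to 0.99 over the 20 arrays. Of these, 2, 3, 3 and 3 passed in E7f, E9f, E9s and E11s.

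CACNA2D3, an α2δ subunit known in mammals from pain pathways, passed nowhere. It was at 3.80, 5.49 and 5.37 in E9fe and at 3.89, 3.87 and 6.58 in E11sm. In each of these groups 1 array set the spread, E9fe replicate 1 on the low side and E11sm replicate 3 on the high side. Its other 2 probe sets correlated with the one used at r = -0.29 and 0.50 over the 20 arrays.

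**Figure D2:**
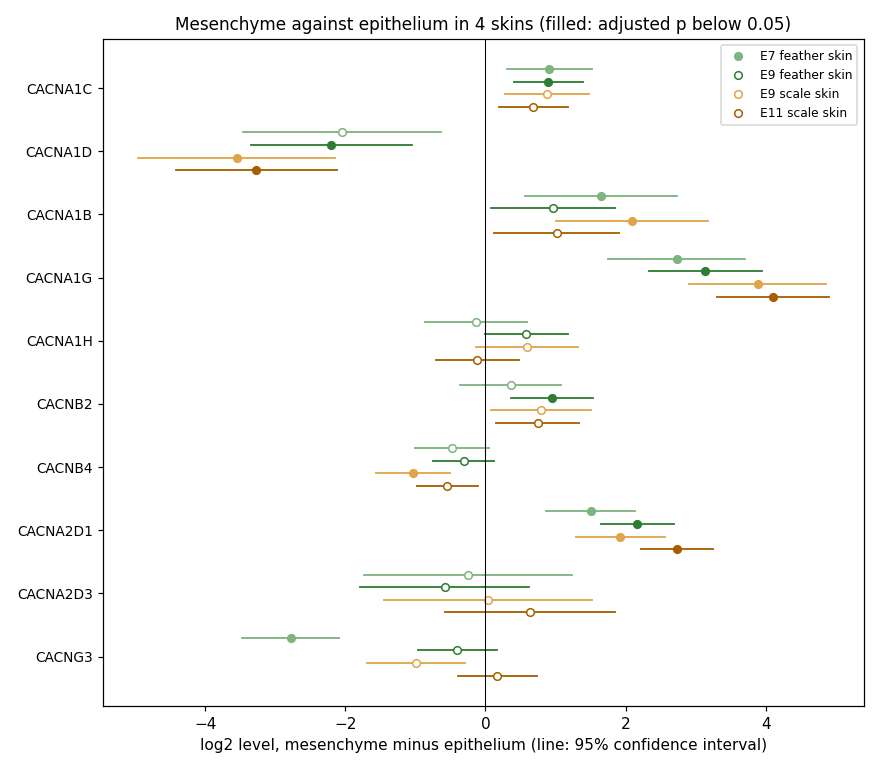
Difference in log2 level, mesenchyme minus epithelium (horizontal axis), for the 10 subunits (vertical axis) in 4 skins, with 95% confidence intervals as lines and filled points where the adjusted p is below 0.05. CACNA1G, from 2.73 to 4.10, and CACNA2D1, from 1.5 to 2.74, pass in all 4 skins.

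Counted over the members, 4 passed as higher and 1 as lower in mesenchyme in E7f, where 12.4% of all probe sets passed, 6.28% as higher and 6.07% as lower. In E9f 4 were higher and 1 lower (17.0% of all probe sets, 8.42% higher and 8.55% lower). In E9s 3 were higher and 2 lower (13.8%, 6.75% higher and 7.05% lower). In E11s 2 were higher and 1 lower (18.8%, 9.41% higher and 9.40% lower). By size alone, 2, 1, 2 and 3 members differed by over 5-fold in E7f, E9f, E9s and E11s, as did 3.75%, 3.11%, 3.84% and 3.92% of all probe sets. CACNA1D is counted in E9s and E11s, though its mesenchyme levels are low and were not tested against array background. The members passing were CACNA1C, CACNA1B, CACNA1G, CACNA2D1 and CACNG3 in E7f, CACNA1C, CACNA1D, CACNA1G, CACNB2 and CACNA2D1 in E9f, CACNA1D, CACNA1B, CACNA1G, CACNB4 and CACNA2D1 in E9s, and CACNA1D, CACNA1G and CACNA2D1 in E11s. The median difference over the 10 genes was 0.11, 0.74, 0.69 and 0.66 in E7f, E9f, E9s and E11s, and that over all probe sets -0.03, 0.00, 0.01 and -0.06. Mesenchyme also holds vessels. All 8 endothelial marker genes are on the array and 5, 5, 5 and 6 of them passed as higher in mesenchyme in E7f, E9f, E9s and E11s. Their summed level, on the log2 scale, was 8.88 to 9.42 over the epithelium arrays. It was 12.14 to 12.26 in E7fm, 10.86 to 13.61 in E9fm, 10.69 to 12.37 in E9sm and 11.99 to 12.55 in E11sm. In E9fm the 13 skeletal muscle markers on the array also ranged widely in summed level, from 9.16 to 10.97, and the 5 smooth muscle markers from 8.23 to 10.48. The 5 blood markers on the array summed to 7.44 to 9.76 over the epithelium arrays, 13.02 to 14.02 in E7fm and 9.09 to 12.51 over the other mesenchyme arrays. The part of these cells in the subunit differences was not tested.

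**Figure D3:**
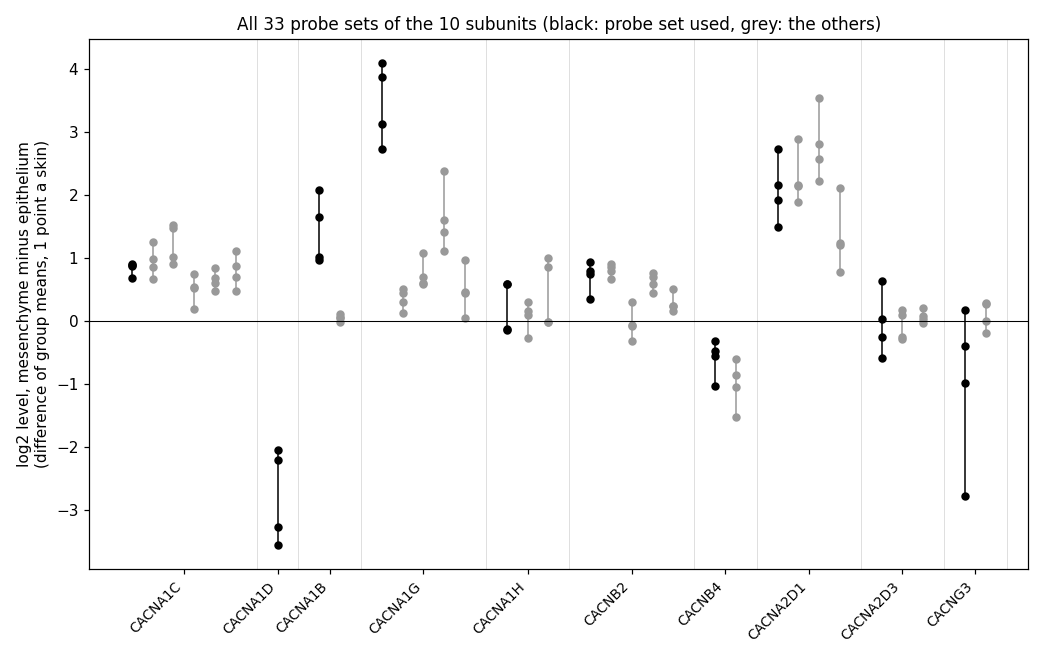
Difference of group means in log2 level, mesenchyme minus epithelium (vertical axis), for all 33 probe sets of the 10 subunits (horizontal axis), with 1 point for each of 4 skins, black for the probe set used and grey for the others. The 3 other probe sets of CACNA2D1 show like differences, those of CACNA1G smaller ones, and the second probe set of CACNG3 lies near 0.

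Between undifferentiated scale and feather epithelium 1 member passed. CACNG3, which in mammals is a brain protein best known as an auxiliary subunit of glutamate receptors of the AMPA type, was at 9.03 and 9.48 in E7fe and at 7.10 and 6.44 in E9se. The groups were far apart, and E7fe was above every other group, with E9fe next (6.88 ± 0.34 SD, n = 3) and E11se lowest (5.66 ± 0.50, n = 3). CACNG3 was lower in E9se than in E7fe by -2.49 ± 0.33 (adjusted p = 0.00149), 5.62-fold, where 0.817% of all probe sets passed. It kept its call without any 1 of the 4 arrays (adjusted p 0.00567 to 0.0399).

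The same gene fell within feather epithelium. E9fe arrays were at 7.24, 6.57 and 6.83, so CACNG3 dropped by -2.38 ± 0.30 from E7fe to E9fe (adjusted p = 0.000752), as the sole member to pass where 0.637% of probe sets did. Fitted to these 2 groups alone the difference missed the threshold (adjusted p = 0.0585). Within E7 skin CACNG3 was lower in mesenchyme, at 6.38 and 6.57, by -2.78 ± 0.33 (adjusted p = 1.53e-05). These 3 comparisons share the 2 E7fe arrays. In E9f, E9s and E11s the CACNG3 difference between compartments was -0.40, -0.99 and 0.17 (adjusted p = 0.399, 0.0583 and 0.792). That of E9s passed without the 2 doubted arrays (0.0432) and with the replicate block (0.0462). From E9se to E11se, with arrays at 6.19, 5.19 and 5.61, the difference was -1.10 ± 0.30 (adjusted p = 0.130). The epithelia of 1 age, E9se and E9fe, differed by -0.11 ± 0.30.

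The CACNG3 pattern rests on 1 of its 2 probe sets. The second had group means from 3.92 to 4.29, a correlation of -0.16 with the first over the 20 arrays, and differences of -0.17 from E7fe to E9se, -0.10 from E7fe to E9fe and 0.00 between E7fm and E7fe. Markers of nerve and of pigment cells also had their highest group mean in E7fe, though for pigment cells the E7fe and E9fe arrays overlapped. The 10 nerve and glia markers on the array, of 14 listed, had a summed log2 level of 12.11 to 12.14 in E7fe, 10.76 to 10.94 in E9fe, 10.63 to 10.97 in E9se and 9.75 to 10.34 in E11se. In mesenchyme the range was 10.61 to 10.68 in E7fm, 10.30 to 10.60 in E9fm, 9.86 to 10.22 in E9sm and 9.79 to 10.10 in E11sm. NEFM, a neurofilament protein, was at 11.15 and 10.73 in E7fe and at 8.65 and 7.48 in E9se, whereas the synaptic protein SNAP25 stayed between 3.46 and 4.30 on all 20 arrays. SOX10, a transcription factor of neural crest and glia, was the only 1 of the 10 to pass between E7fe and E9se, with a difference of -2.76 (adjusted p = 0.00716). The 8 melanoblast markers summed to 13.82 to 14.32 in E7fe, 10.43 to 13.87 in E9fe, 11.23 to 11.88 in E9se, 10.97 to 11.08 in E11se and 8.78 to 10.62 over mesenchyme. Their median difference from E7fe to E9se was -2.22. By limma 0 of the 8 passed there (6 at an unadjusted p below 0.05), and 6 passed in the fit without the 2 doubted arrays, in which 760 of all 38439 probe sets passed against 314. The part of either cell type in the CACNG3 difference was not tested.

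**Figure D4:**
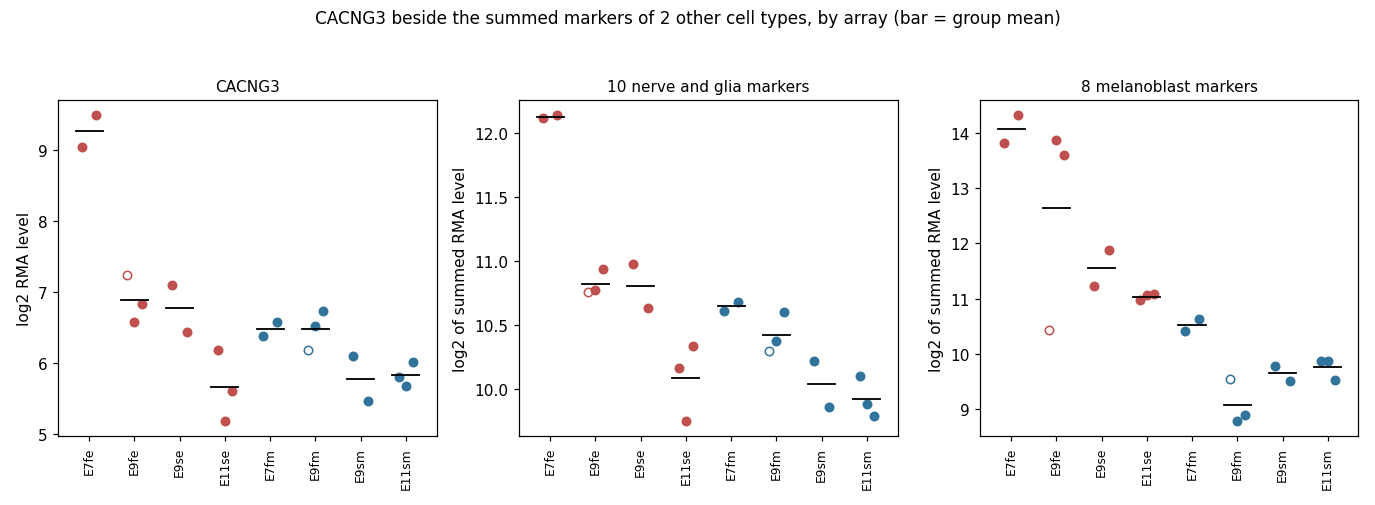
CACNG3 (log2 RMA level, left) beside the log2 of the summed level of 10 nerve and glia markers (middle) and 8 melanoblast markers (right) in the 8 groups, 1 point an array and a bar for each group mean, with E9fe and E9fm replicate 1 open. All 3 have their highest group mean in E7fe, where CACNG3 is at 9.26. The melanoblast sums of E7fe and E9fe overlap, and the vertical scales differ.

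Between the undifferentiated epithelia, E9se and E7fe, CACNA1D did not pass after adjustment over all probe sets. The E9se arrays, at 7.44 and 6.71, were above both E7fe arrays, at 6.24 and 4.25, and the difference was 1.83 ± 0.66 (95% interval 0.42 to 3.24, adjusted p = 0.413). This interval uses a spread shared by all 8 groups. The SD of CACNA1D was 1.41 in E7fe and 0.51 in E9se, but 0.03 to 0.22 in the mesenchyme groups. Between the differentiated epithelia, E11se minus E9fe, the CACNA1D difference was 1.14 ± 0.54 (adjusted p = 0.873) and the groups overlapped. Between E9se and E9fe, of the same age, it was 1.49 ± 0.61 (adjusted p = 0.542). Without E9fe replicate 1, the array with SP8 at 10.16, the E9se level was higher than E9fe by 2.16 and passed (adjusted p = 0.0442, or 0.0456 with E9fm replicate 1 also left out, when 3.19% of all probe sets passed). CACNG3 was lower in E11se than in E9fe by -1.22 ± 0.27 (adjusted p = 0.0793), and passed without E11se replicate 1 (-1.48, adjusted p = 0.0383).

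No member passed in E9sm against E7fm, E11se against E9fe or E11sm against E9fm by limma, where 0.788%, 0.312% and 0.00520% of all probe sets passed. At an unadjusted p below 0.05 the members counted 1, 1 and 3. In mesenchyme CACNA2D1 had the largest positive scale minus feather difference at both stages, 1.03 ± 0.30 (adjusted p = 0.189) and 0.65 ± 0.24 (adjusted p = 0.755). CACNG3 had the largest negative one, -0.69 and -0.65. The arrays of CACNA2D1 did not overlap at either stage, but groups hold 2 or 3 arrays and neither difference passed. CACNA1G was higher by 0.45 in E11sm than in E9fm (adjusted p = 1.0), and by 0.94 (adjusted p = 0.0375) without the 2 doubted arrays, when 2.31% of all probe sets passed. Of these arrays, E9fm replicate 1 has the highest CACNA1G level of all, 9.47. E9sm and E9fm, of 1 age, showed no member passing (0% of all probe sets, 1 member at an unadjusted p below 0.05), as did E9se and E9fe (0.0754%, 2 members).

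**Figure D5:**
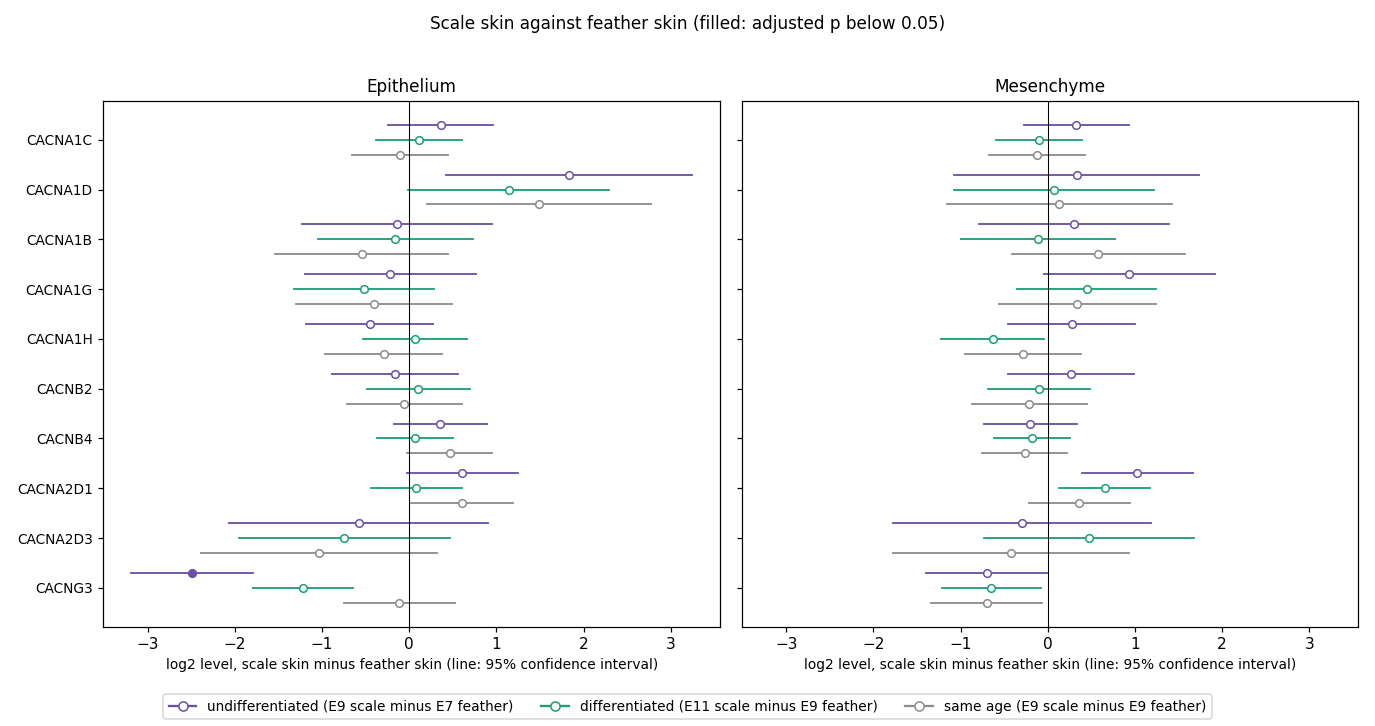
Difference in log2 level, scale minus feather skin (horizontal axis), for the 10 subunits (vertical axis) in epithelium (left) and mesenchyme (right), with 95% confidence intervals as lines and filled points where the adjusted p is below 0.05. CACNG3 in undifferentiated epithelium, at -2.49, is the only filled point.

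Stage gave no further call. From E7fm to E9fm (0.520% of all probe sets passing), E9se to E11se (0.676%) and E9sm to E11sm (0%) no member passed by limma, and 1, 1 and 0 had an unadjusted p below 0.05. CACNA2D1 had the largest positive difference from E7fm to E9fm, 0.66 ± 0.27 (adjusted p = 0.453). From E9sm to E11sm CACNA2D3 led with 0.89, which came to -0.0074 without E11sm replicate 3. Whether scale minus feather differences change with stage or compartment was tested in the same fit, and no member passed in any of the 4 tests, where 0.127%, 0.0442%, 0.492% and 0.0702% of all probe sets did and 0 or 1 member had an unadjusted p below 0.05. The nearest was CACNG3 before differentiation, whose scale minus feather difference was 1.80 ± 0.46 more positive in mesenchyme than in epithelium (adjusted p = 0.142). With arrays weighted by their quality it passed (adjusted p = 0.0229).

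Genes of like pattern were sought for the 3 subunits with the widest range of group means, over 13008 other genes and 20 arrays that share their compartments. They were picked by this likeness, so their group means describe the choice and are no separate evidence. CACNA1G was most like FGFR1, a receptor of fibroblast growth factors (r = 0.99), ERG, a transcription factor of endothelium and cartilage (0.99), and DNM1, a dynamin of membrane uptake (0.99). ERG was at 8.37 to 9.78 in the means of mesenchyme groups and at 4.01 to 4.61 in those of epithelium. CACNA1D was most like GABRG1, a subunit of GABA receptors (0.96), KBP (0.95) and SGMS2, a sphingomyelin synthase (0.95). GABRG1 had its highest means in E9se and E11se, 8.67 and 8.37, and lower ones in E9fe and E7fe, 6.99 and 5.52. CACNG3 was most like IL1RAPL1, a synaptic membrane protein in mammals (0.88), PRLH, a peptide hormone (0.87), and PAX7, a transcription factor of neural crest and muscle precursors (0.86). PAX7 was at 6.39 in E7fe and at 4.05 to 5.13 in the other group means.

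Of 16 other subunits of voltage-gated calcium channels 8 are on the array. Of these 2 passed in E9f, where 17.0% of all probe sets did, and 1 in E7f, where 12.4% did. CACNA2D2, another α2δ subunit, was higher in mesenchyme in E9f by 1.56 ± 0.30 (adjusted p = 0.00127). CACNG5, of the γ family, was higher in E7f by 0.89 (adjusted p = 0.0243) and in E9f by 0.62 (0.0456). Both CACNG5 calls changed with single arrays: the first was lost without E7fe replicate 1, E7fe replicate 2 or E7fm replicate 1 (adjusted p = 0.0943, 0.132 and 0.374), and the second without E9fe replicate 2, E9fe replicate 3, E9fm replicate 1 or E9fm replicate 3 (0.215, 0.150, 0.119 and 0.168). With the 2 groups alone neither passed (0.0567 and 0.162). Among 8 genes that regulate these channels, GEM, a small GTPase that lowers channel activity in mammals, was higher in mesenchyme by 5.22, 5.5, 3.58 and 5.22 in E7f, E9f, E9s and E11s (adjusted p = 0.00219, 0.000190, 0.0289 and 0.000239). Its 3 E9fm arrays ranged from 6.62 to 11.09. AKAP6 went the other way, passing as lower in mesenchyme in E7f by -1.23 and in E9s by -1.37. AKAP5 passed as higher in E9s by 0.88 and in E11s by 0.78, and RIMS1 in E9f by 0.52. Each of these AKAP6, AKAP5 and RIMS1 calls was lost on leaving out at least 1 array. The E9s call of GEM was lost without E9se replicate 1, E9se replicate 2 or E9sm replicate 2 (adjusted p = 0.101, 0.154 and 0.339, the last with a difference of 2.20).

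Genes of other calcium routes were counted in the same 4 comparisons, where 12.4% to 18.8% of all probe sets passed, and the counts are given as a description of these lists. Of 15 further entry channels and their sensors, 2 to 3 passed as higher and 1 to 2 as lower in mesenchyme per skin. TRPV2, a cation channel, was higher by 3.26 to 3.71 in all 4. PIEZO2, a channel opened by touch, was at 8.82 in E7fe and 7.18 in E9se, a fall of -1.64 ± 0.32 (adjusted p = 0.0199), but at 7.66 in E7fm and 9.70 in E9sm, a rise of 2.04 ± 0.32 (adjusted p = 0.00563). With the mean of all PIEZO2 probe sets the epithelial fall was -1.01 and missed the threshold (adjusted p = 0.140). It also missed it without any 1 of the 4 epithelium arrays (adjusted p 0.0794 to 0.252), as did the mesenchymal rise without E7fm replicate 1 (0.0667), E7fm replicate 2 (0.0643) or E9sm replicate 1 (0.0559). The scale minus feather difference was thus 3.68 ± 0.45 more positive in mesenchyme than in epithelium (adjusted p = 0.000868). Within feather mesenchyme PIEZO2 also rose from E7fm to E9fm, by 1.43 ± 0.29 (adjusted p = 0.0361). With the mean of all its probe sets that rise was 0.76 and did not pass (adjusted p = 0.289). Mesenchyme minus epithelium, PIEZO2 passed with -1.16, 1.55, 2.52 and 3.23 in E7f, E9f, E9s and E11s. With the mean of its probe sets the E7f difference was -0.76 and did not pass (adjusted p = 0.0959). The E7f call was also lost without E7fe replicate 1 (-0.96), E7fm replicate 1 (-1.08) or E7fm replicate 2 (-1.24). Of 10 genes of store release and buffering, ITPR1, a receptor that releases calcium from stores, passed as higher in mesenchyme in E7f by 2.15 and in E9f by 0.88. Its differences of 0.87 in E9s and 0.73 in E11s also passed, but the first was lost without any 1 of its 4 arrays (adjusted p 0.0877 to 0.246) and the second without E11se replicate 1, E11se replicate 3 or E11sm replicate 2 (0.0604, 0.141 and 0.126) or with the mean of all ITPR1 probe sets (0.34, adjusted p = 0.0934). The sister receptors went the other way. ITPR3 passed as lower in mesenchyme in E7f, E9f and E9s, by -1.95, -1.58 and -1.83, and ITPR2 in E11s by -1.82. CASQ2, which holds calcium in stores, passed as lower in all 4 skins, by -2.00 to -2.96. Of 12 pumps and exchangers 2 to 3 passed as higher and 3 to 5 as lower in mesenchyme. ATP2A3, a pump into stores, was the higher by 1.62 to 2.36, and ATP2B1, a pump out of the cell, was the lower by -1.52 to -2.61. Of 23 calmodulin, kinase and calcineurin genes 0 to 4 passed as higher and 2 to 4 as lower, CAMK1D, a calmodulin kinase, by -2.02 to -3.17 in all 4 skins. CAMKK2 was among those higher, by 1.69 in E9f and 2.18 in E11s.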

How the data were processed

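RNA of 20 pooled skin samples had been hybridised to chicken genome arrays. The deposited values are log2 levels that the authors made from raw intensities by RMA, which includes quantile normalisation, with the affy package per the labels, versions and genome build not given in the sources used here. Array medians were 5.618 to 5.686, and no value was missing. RMA shrinks differences of dim probe sets, and 4 of the 10 subunits had every group mean below the median level of 5.714. Raw files were not used here. No RNA depth applies to arrays, whose number limits the precision.

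Of 38535 probe sets 96 controls were left out and 38439 tested. By the array annotation 27168 of them have 1 symbol, 177 several and 11094 none. All 10 subunit gene IDs matched RefSeq with the same symbol. Groups came from the sample titles, whose numbers of arrays per group were followed where the study's methods state others. limma 3.58.1 in R 4.3.3 fitted 1 mean per group over 8 groups and 20 arrays, with eBayes and Benjamini-Hochberg adjustment within each of 14 comparisons and 4 differences of differences, at a threshold of 0.05. The fit was tested on simulated data. Alternatives were the replicate number as a block, leaving out each array and 2 doubted arrays, the 2 groups alone, the mean of a gene's probe sets, leaving out dim probe sets, other scalings, an intensity trend and array weights. Named differences are those that pass and the largest each way in each comparison. List genes were drawn from those that pass, up to 2 each way per list and comparison. Not every gene so drawn is named in the text. The members and lists were chosen with earlier results of these data known. Arrays with the same replicate number deviated together, with every correlation above 0.1, in the 4 comparisons of groups of 3. The same held for E9se against E7fe (0.41), E9sm against E9se (0.20) and E9sm against E9fm (0.11 to 0.38). The main fit did not pair the arrays, and the replicate number entered only as a block in an alternative.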

Additional observations from a re-analysis of the deposited data

Results flagged for a closer look

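PIEZO2 was the only gene among the subunits and calcium lists whose scale minus feather difference itself differed between compartments by a test of that difference. At the undifferentiated stage it was 3.68 more positive in mesenchyme than in epithelium (limma, adjusted p = 0.000868), from -1.64 in epithelium and 2.04 in mesenchyme. Scale skin is the older there, so region and age cannot be told apart. Within feather mesenchyme PIEZO2 also rose from E7fm to E9fm, by 1.43 ± 0.29 (limma, adjusted p = 0.0361). The arrays ran from 8.62 to 9.02 in E7fe, 7.00 to 7.36 in E9se, 7.59 to 7.74 in E7fm and 9.54 to 9.86 in E9sm. The difference of 3.68 between compartments passed in all other calculations, down to 2.32 with the mean of the PIEZO2 probe sets.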

How the results depend on the processing

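The counts of subunits passing stayed within 1.5 times in 158 of 174 recalculations over 18 comparisons and tests other than leaving out 1 array. A count of 0 that stayed 0 was scored as unchanged, and most of the 18 had 0 in the main fit. The share thus says little of the compartment comparisons, where most calls lie. The replicate block changed no count of subunits by more than 1.5 times and ended no call of a subunit. Among list genes CAMK2D from E9se to E11se (adjusted p = 0.0605) and RIMS1 in E9f (0.0526) no longer passed with it. With the replicate number as a block 6, 5, 7 and 4 subunits passed in E7f, E9f, E9s and E11s. The additions were CACNA1D in E7f, CACNA1C and CACNG3 in E9s, and CACNA1C in E11s. Arrays of the same number correlated at -0.37 in E7f and at 0.20 in E9s. Crossing the replicate numbers, an alternative chosen after seeing the data because the correlations were -0.33 and -0.37, gave 6 in E7f and 0 in E9sm against E7fm. Without the 2 doubted arrays the count rose from 0 to 1 in E11sm against E9fm (CACNA1G) and in E9se against E9fe (CACNA1D), and the probe sets passing in comparisons of region or stage rose from between 0 and 314 to between 648 and 1228, except E9sm to E11sm with 0 in both. Fitted to only the 2 groups it fell from 1 to 0 for E7fe to E9fe and from 5 to 3 in E9f (without CACNA1D and CACNB2), and leaving out dim probe sets also gave 3 in E9f, where 6 of the 10 subunits could be tested. With the mean of a gene's probe sets it was 2 in E7f and 6 in E11s. Quantile normalisation run again gave 5 in E11s. Array weights gave 1 in E9sm against E7fm, 8 in E9s, 5 in E11s and 1 in E9se against E9fe. They also gave 1 in the early test of whether scale minus feather differences differ between compartments. Counting differences over 5-fold with no test gave 2 in E7f, 1 in E9f and 2 in E9s. The cause of these changes was not tested. Leaving out 1 array gave counts of 0 to 1 in E11se against E9fe, 3 to 4 in E7f, 3 to 6 in E9f, 3 to 5 in E9s and 0 to 1 in E9se against E9fe. The sign of 5 differences that did not pass turned: CACNA1D in the change of the epithelial scale minus feather difference with stage (-1.69 to 0.30), CACNA1B from E7fm to E9fm (-0.86 to 0.13) and between E9sm and E9fm (-0.065 to 1.22), and CACNA2D3 from E9sm to E11sm (-0.0074 to 1.35) and in the change of the mesenchymal difference with stage (-0.13 to 1.22). Of 404 other recalculations of 46 named subunit differences 390 kept direction and side of the threshold, 10 no longer passed and 4 newly passed. Groups of 2 and 3 arrays limit what can be told apart, and a lone array left in a group is assumed to vary like the others.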
